A study of Homo sapiens with 4 samples.

Results

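Immune checkpoint ligands are cell surface proteins through which a tumor cell can restrain the immune cells that meet it. RNA bound by YTHDF1, a cytoplasmic reader of N6-methyladenosine (m6A), was examined here for 9 genes. These were the ligand genes CD274, PDCD1LG2, CD276, VTCN1, CD47, PVR, NECTIN2 and LGALS9, together with CMTM6. The product of CMTM6 is not a ligand of this kind and instead keeps the product of CD274 at the cell surface. The genes were chosen by name, with earlier results of these data known. A listed window was found for 7 of the 9, and they held 24 of the 26819 distinct windows in the table, which covers 7550 genes. Over 20052 RefSeq protein-coding genes, 31.8% had a listed window, with no account of which genes the cells express. PDCD1LG2 and VTCN1 were not listed.

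The samples were SNU638 cells, an established human gastric cancer line. All 4 libraries came from cells that overexpressed YTHDF1, went without serum for 24 h and then received IFN-γ (10 ng/ml) over another 24 h. The 2 IP-YTHDF1 libraries held RNA recovered with the immunoprecipitated protein (by the methods, through its FLAG tag) and the 2 input libraries held RNA of the lysate, numbered as biological replicates 1 and 2 in each group. The series has 1 cell line, an overexpressed protein and no group without IFN-γ, so the values describe binding under IFN-γ and no change with it. The table gives a single signal value, p-value and q-value per 50 bp window for the 4 libraries together. Depth per library and spread between replicates are therefore unknown, and all values below are descriptions. Of the epithelial markers, EPCAM, KRT8, KRT18 and KRT19 had a listed window and CDH1 had none. A listed window shows enrichment and not the level of a transcript.

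PD-L1, the product of CD274, and PD-L2, the product of PDCD1LG2, bind the receptor PD-1 on T cells, and PD-L1 is a well-known product of the response to IFN-γ. B7-H3 (CD276) and B7-H4 (VTCN1) belong to the same B7 family. CD47 restrains phagocytosis through SIRPα, PVR and NECTIN2 are ligands of TIGIT and of its activating counterpart CD226, LGALS9 encodes galectin-9, and CMTM6 keeps PD-L1 protein at the cell surface. In mRNA, m6A is written mostly in the sequence context DRACH, a 5-base motif, and YTHDF proteins read it.

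Within genes, sequence at hand covered only the first 50 bases from each gene start, and windows of CMTM6 and NECTIN2 reached into it. These bases are shown because they are the part of the listed windows whose letters could be read. They are from RefSeq (GRCh38.p14), written 5′ to 3′ on the strand of the gene as DNA, and capitals mark a DRACH match.
CMTM6, chr3:32502803-32502812, minus strand, bases 41 to 50 from the gene start: GGACTtctgg
NECTIN2, chr19:44846326-44846346, plus strand, bases 30 to 50 from the gene start: ctgagcgagaggccgggggtg
The motif searched was A, G or T first, then A or G, then AC, and A, C or T last, on the strand of the transcript only. CMTM6 held 1 match, and it was GGACT. Among 22198 starts of protein-coding genes, where a gene may have several, 6.99% had a DRACH match in the same 10 positions. NECTIN2 held no match in its 21 bases, where 18.9% of gene starts had one. A match is a description of letters and not a mapped m6A site, and the remaining bases of both windows were not searched.

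CD274 held the strongest single window of the 9 genes by signal value, while its median over windows, 2, was below those of CD276 (2.49), CD47 (2.35) and CMTM6 (2.17). The table listed 6 windows of CD274 (ENSG00000120217, plus strand of chromosome 9), which fell into 3 stretches of the gene across 11000 bp. In the first stretch, 2 adjoining windows formed 1 region of 100 bp. The downstream one, 5457154 to 5457203, carried the largest signal value of any member, 3.39, at rank 330, and both its p-value and its q-value were listed as 0. Its upstream partner, 5457104 to 5457153, reached 2.28 (q-value 5.2e-07). A p-value of 0 was listed for 508 windows (1.89% of the table) and for 1 of the 24 member windows, and the smallest p-value above 0 was 1.11e-16.

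The second stretch of CD274 began 5650 bp downstream on the genome and was the weakest of the 3. Signal values of 1.59 (5462854 to 5462903, q-value 0.02505) and 1.72 (5462904 to 5462953, q-value 3.74e-05) were listed for its adjoining windows. After another 5000 bp, the last stretch opened with the window from 5467954 to 5468003, at a signal value of 2.33 (q-value 4.68e-08). A window from 5468054 to 5468103 followed at 1.67 (q-value 0.00315). A gap of 50 bp, the width of 1 window, lay between this last pair. The 6 values were thus split evenly around the median of all listed windows, 1.84, with 3 above it and 3 below. All 3 above it had the smallest p-values of the gene.

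**Figure D1:**
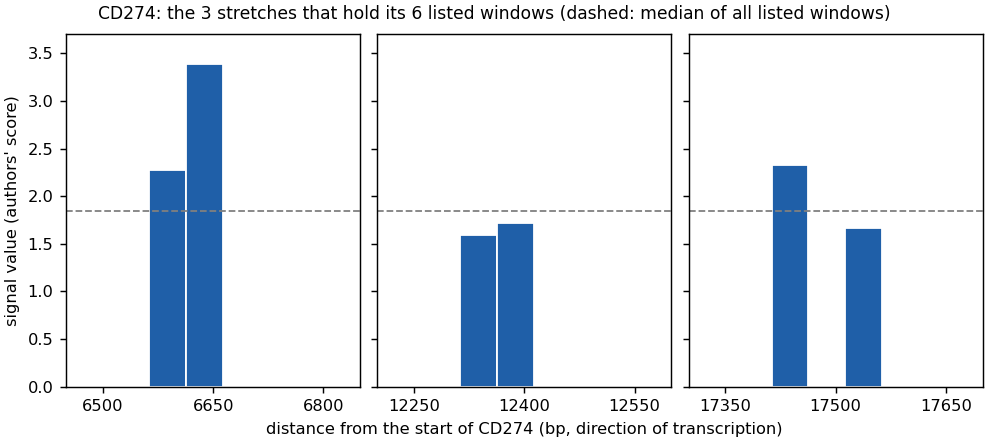
Signal value (authors' score, y axis) of the 6 listed CD274 windows against distance from the start of the gene in bp (x axis, 3 separate stretches of equal width); each bar is 1 window of 50 bp and the dashed line is the median of all listed windows, 1.84. The first stretch holds the highest bar, 3.39, and both bars of the middle stretch, 1.59 and 1.72, lie under the line.

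Set beside the whole table, the strongest CD274 window exceeded 98.9% of listed windows. It exceeded the strongest window of 97.2% of protein-coding genes with a window. Among the 1280 protein-coding genes with 22 to 32 tested windows, within 5 of the 27 counted for CD274, it exceeded 98.3%. In number of windows CD274 stood less far out, since 13% of these genes had 6 or more. The number tested may be too low in genes with 9 listed windows, the most given for a gene, so some may be wrongly matched. Among the 344 protein-coding genes with exactly 6 listed windows, the 5 most like CD274 in largest signal value, leaving out CD274 itself, were C11orf95 (3.39), FOXN2 (3.36), RMND5A (3.42), TAOK1 (3.36) and NCAPD2 (3.43). They had from 38 tested windows in FOXN2 to 147 in TAOK1, all more than CD274.

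Another transcript runs across part of CD274. INCR1, a long non-coding RNA gene on the minus strand, spans 5457431 to 5629727 in RefSeq, an interval that holds the 4 CD274 windows of the second and last stretches and the whole of PDCD1LG2. The first stretch lies outside it. No window was listed under the name INCR1, and no window of any other gene lay within the interval of CD274. The library kit keeps strand and each window is assigned one, but whether reads were counted by strand is not given in the sources used here.

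Of the other B7 family genes among the 9, CD276 alone had listed windows, and they were the strongest after CD274. CD276 (ENSG00000103855, plus strand of chromosome 15) had 2 adjoining windows. Their signal values were 2.6 for the upstream one (73702967 to 73703016, q-value 6.16e-13) and 2.37 for the other (73703017 to 73703066, q-value 2.4e-05). Both lay above the 75th percentile of all listed windows, 2.19, and none was listed elsewhere in the gene. The stronger one exceeded the strongest window of 76.8% of protein-coding genes. For PDCD1LG2 (chromosome 9, 5510531 to 5571282) and VTCN1 (chromosome 1, 117143587 to 117210927), neither a window of the gene nor of any other gene was listed in the interval. Whether these transcripts were present in the input cannot be read from the table.

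CD47 and CMTM6, which act on the phagocyte signal and on the stability of PD-L1, had 1 window each. For CD47 (ENSG00000196776, minus strand of chromosome 3) it ran from 108080242 to 108080291 and reached a signal value of 2.35 (q-value 0.00035). This window lay 10741 to 10790 bp from the gene start. For CMTM6 (ENSG00000091317, minus strand of chromosome 3) it ran from 32502763 to 32502812 and reached 2.17 (q-value 0.003875). It covered bases 41 to 90 from the gene start, the stretch that opens with the GGACT printed above. Both values were above the median of all windows, and only that of CD47 was above the median of the strongest window per protein-coding gene, 2.23.

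**Figure D2:**
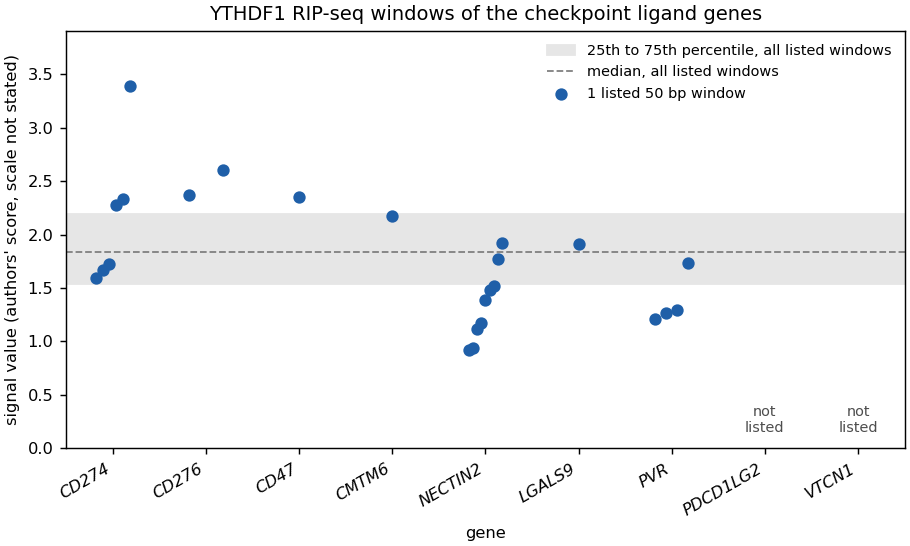
Signal value (authors' score, y axis) of each listed window (points) for the 9 genes on the x axis, with the median of all listed windows (dashed, 1.84) and the span from the 25th to the 75th percentile (grey, 1.54 to 2.19). CD274 reaches highest at 3.39, most NECTIN2 and PVR windows lie below the grey span, and PDCD1LG2 and VTCN1 have no point.

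The ligands of TIGIT, PVR and NECTIN2, held 13 of the 24 windows and had the lowest median signal values, 1.28 and 1.39. NECTIN2 (ENSG00000130202, plus strand of chromosome 19) had 9 windows, more than any other member, with signal values from 0.92 to 1.92. Its largest was next to the 1.91 of LGALS9. Only 1 of them exceeded the median of all listed windows. That window ran from 44878376 to 44878425 and reached 1.92 (q-value 3.52e-08). It opened a cluster of 5 windows within 500 bp, which also held signal values of 1.48, 1.52 and 1.39 and ended with 1.77 at 44878826 to 44878875 (q-value 0.002068). At the other end of the gene, 3 windows lay within the first 229 bp. Their signal values were 0.92, 1.17 and 1.12 in order from the gene start, and the first had the largest q-value among the members, 0.04362. A single window from 44865326 to 44865375, at 0.94, lay between these groups.

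The table lists at most 9 windows for a gene, and 897 genes reach that number. Only 193 of these had q-values that fitted with no place skipped, so the list was cut short in many of them. Ranks also ran higher than the 26819 distinct windows, to 30250 in NECTIN2, so they were given over a longer list. Medians and percentiles of windows here cover listed windows only. In NECTIN2 the 9 q-values were refitted as places 1 to 9 among 53 tested windows, with no place skipped. A window beyond the ninth place by p-value would not be seen by this count.

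PVR (ENSG00000073008, plus strand of chromosome 19) had 4 windows in 3 regions, all under the median of the table. Signal was strongest in the first, 44647299 to 44647348, at 1.73 (q-value 0.01289). Adjoining windows from 44649899 to 44649948 and from 44649949 to 44649998 had signal values of 1.27 and 1.21, and the window from 44661849 to 44661898 had 1.29. These 3 share a q-value of 0.01655, because the adjustment gives windows the value of the next larger p-value where that is lower. The strongest PVR window exceeded the strongest window of 9.67% of protein-coding genes, the lowest place among the 7 listed members.

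LGALS9 (ENSG00000168961, plus strand of chromosome 17) had 1 window, from 27640599 to 27640648, at a signal value of 1.91 (q-value 0.02705). RefSeq holds 3 more loci under the LGALS9 name (LGALS9B, LGALS9C and the pseudogene LGALS9DP), none of them listed. LGALS9B and LGALS9C are close copies of LGALS9, and how reads with several matches were handled is not given in the sources used here, so this value is uncertain.

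**Figure D3:**
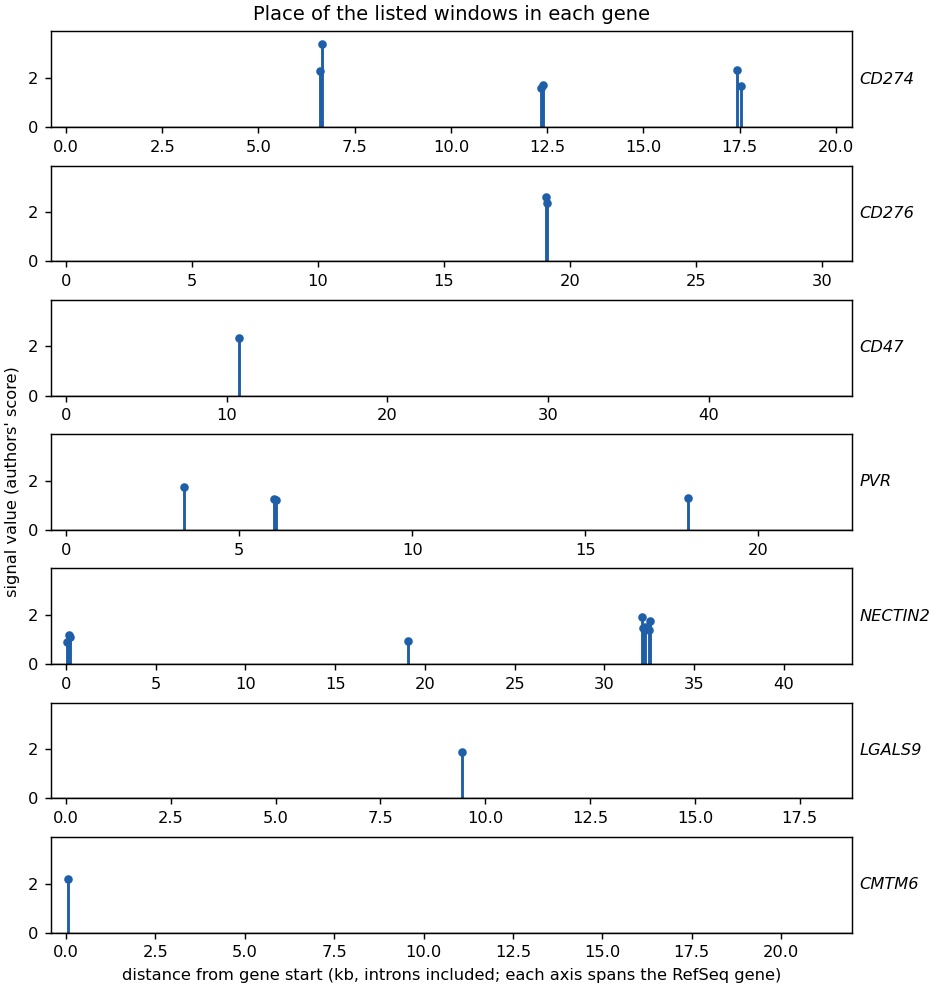
Signal value (authors' score, y axis) of each listed window against distance from the gene start in kb (x axis, direction of transcription, introns included), 1 panel for each of the 7 listed genes with its axis spanning the RefSeq gene. Windows sit in separate groups along CD274, PVR and NECTIN2, in 1 place in CD276, CD47 and LGALS9, and at the gene start in CMTM6.

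All 24 lay inside the RefSeq interval of their gene, and joining those that touch gave 17 regions of 50 or 100 bp. In 4 members (CD276, CD47, LGALS9 and CMTM6) there was a single region. Windows at the gene start were seen in NECTIN2 and CMTM6, whose first windows began at base 30 and base 41.

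The adjustment of p-values was made gene by gene, so the number of windows tested in a gene could be worked out, and with it the share that was listed. CD274 had the highest share, with 6 of 27 tested windows (22.2%, Wilson 95% interval 10.6% to 40.8%). NECTIN2 followed with 9 of 53 (17%, interval 9.2% to 29.2%). In protein-coding genes with under 9 listed windows, 7.71% of tested windows were listed, and the interval of CD274 lay above it. That set leaves out genes with 9 listed windows, NECTIN2 among them. With such genes counted the share was 8.95%, with their lists still cut at 9. Among the 724 protein-coding genes within 5 of the number of windows tested in NECTIN2, 20.4% had 9 listed windows, the limit of the table. For CD274, 13% of 1280 such genes had 6 or more, a spread between genes that its interval does not cover. The number tested is a lower bound in genes at the limit of 9, so some of them may be wrongly matched in both sets. The intervals treat windows as independent, which adjoining windows need not be. CD47 (1 of 10), LGALS9 (1 of 11), CMTM6 (1 of 13), PVR (4 of 70) and CD276 (2 of 42) had shares from 4.76% to 10%, with intervals that held 7.71%. Over the 7 members, 24 of 226 tested windows were listed (10.6%).

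**Figure D4:**
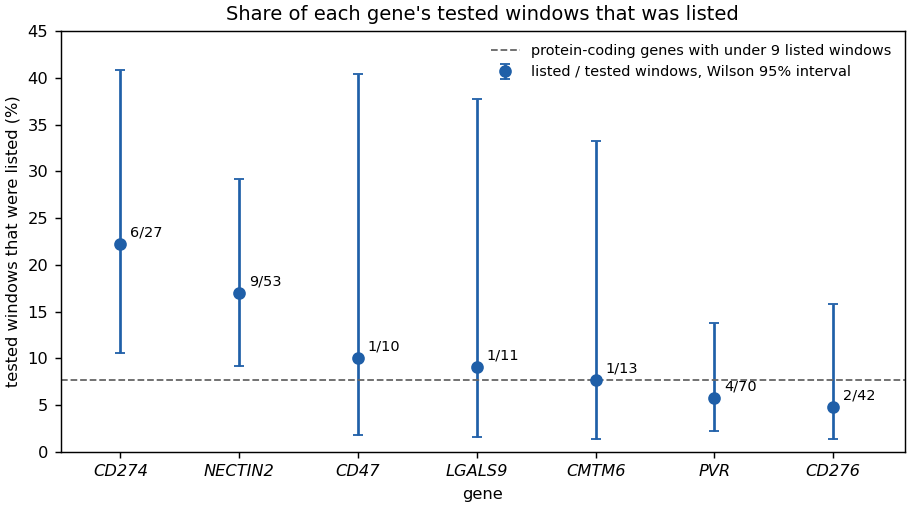
Percent of each gene's tested windows that was listed (y axis) for the 7 listed genes (x axis); points carry listed over tested windows, bars are Wilson 95% intervals, and the dashed line is the 7.71% of protein-coding genes with under 9 listed windows. The bar of CD274 lies wholly above the line, and NECTIN2, with 9 listed windows, is outside the set the line was drawn from. With genes at 9 listed windows counted, the share was 8.95%. Bars cover counting error only and not the spread between genes.

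The number of tested windows also set how small a p-value a window needed. CD47, LGALS9 and CMTM6 had fewer tested windows than most protein-coding genes with a listed window, with 10, 11 and 13 against a median of 35. In these 3 genes a single window was listed from a p-value of 0.005, 0.00455 and 0.00385. In PVR, with 70 tested windows, a single window needed 0.000714. The LGALS9 window, with a p-value of 0.002459, would not have been listed alone under that limit. In CD274, a tested window that was not listed had a p-value above 0.013. The order of the members by p-value also differed from that by signal value. NECTIN2 reached a smallest p-value of 6.64e-10 at a signal value of 1.92, and CD47 reached 3.5e-05 at 2.35.

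Among all 20052 RefSeq protein-coding genes, 31.8% had a listed window, against 7 of the 9 members (77.8%), which were not chosen blind to these data. At a q-value of at most 0.001 the share was 21.2% of protein-coding genes and 4 of the 9 members (CD274, CD276, CD47 and NECTIN2). Neither share takes account of which genes SNU638 cells express. By strength the members did not stand high as a group. Of their windows, 7 of 24 had a signal value of at least 2 (29.2%), against 37.2% of all listed windows, and 9 were above the median of the table. All 7 were in CD274, CD276, CD47 and CMTM6. The 9 windows of NECTIN2 and the 4 of PVR included none, so the pooled share rests largely on these genes. The median of the strongest window per listed member was 2.17, next to 2.23 over protein-coding genes.

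The genes around the members were read from lists of receptors, relatives and regulators, 82 genes in all, of which 35 had a listed window. Over all protein-coding genes 31.8% had one, with no account of which genes are expressed. Checkpoint receptors, which act mainly on immune cells, had one in 2 of 13 genes (15.4%). These were PVRIG (1 window, largest signal value 2.44), a receptor of NECTIN2, and HAVCR2 (1 window, 2.35), which encodes the galectin-9 receptor TIM-3. PDCD1, TIGIT, CD226 and SIRPA, which encode other receptors of the members, were not listed. Other checkpoint and co-stimulatory ligands had one in 3 of 16 genes (18.8%). These were NCR3LG1 (3 windows, largest signal value 2.78), which encodes the NKp30 ligand B7-H6, CEACAM1 (1 window, 2.32) and TNFRSF14 (1 window, 1.52). CD80, CD86, HHLA2 and VSIR were not listed.

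Close relatives of the members were listed in part. The share was 50% of the nectin list, 57.1% of the CMTM family and 14.3% of the other galectins, against 31.8% of protein-coding genes. In the nectin family, NECTIN4 (largest signal value 2.21) and NECTIN3 (2.14) had 1 window each, and NECTIN1 and CADM1 had none. Both values were above the largest of NECTIN2, 1.92, although NECTIN2 had more windows. In the CMTM family, 4 of 7 genes were listed, with largest signal values of 2.87 in CMTM1, 2.78 in CMTM8, 2.34 in CMTM7 and 2.05 in CMTM4. CMTM4, which like CMTM6 protects PD-L1 protein, was the only one of these below CMTM6 (2.17). Among 7 other galectins, LGALS8 alone was listed, with 2 windows and a largest signal value of 2.01.

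Genes for the turnover and processing of PD-L1 protein were listed in 12 of 17 cases, against 31.8% of protein-coding genes with no account of which genes are expressed. STUB1, a ubiquitin ligase for PD-L1, had 5 windows and the largest signal value of the list, 3.12. SPOP, the substrate adaptor of a cullin ligase that degrades PD-L1, had 3 windows and a largest signal value of 2.73. GSK3B, a kinase that marks PD-L1 for degradation, had 5 windows and 2.7, and RAB11A, a GTPase of recycling endosomes, had 2 windows and 2.57. HIP1R (2.4), COPS5 (2.37), STT3B (2.31), ZDHHC3 (2.23), USP22 (2.12) and TRAPPC4 (2.05) followed by largest signal value, with STT3A and CUL3 lower. QPCTL, which modifies CD47 for binding by SIRPα, was not listed.

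All 8 transcription factors on the list for the CD274 promoter had a listed window, against 31.8% of protein-coding genes, again with no account of expression. Their largest signal values ran from 1.89 in STAT3 to 2.91 in NFKB1, all below the 3.39 of CD274 itself. IRF1, a factor induced by IFN-γ, had 3 windows among 79 tested, with a largest signal value of 2.37. Of 9 neighbours of CD274 on chromosome 9, 3 were listed (33.3%), near the 31.8% of protein-coding genes. These were JAK2 (9 windows, largest signal value 3.34), KIAA2026 (9 windows, 3.17) and RIC1 (2 windows, 2.17). JAK2 encodes a kinase of the IFN-γ receptor. The protein-coding gene next to CD274 on the JAK2 side, PLGRKT, was not listed, nor was PDCD1LG2 on the other side.

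**Figure D5:**
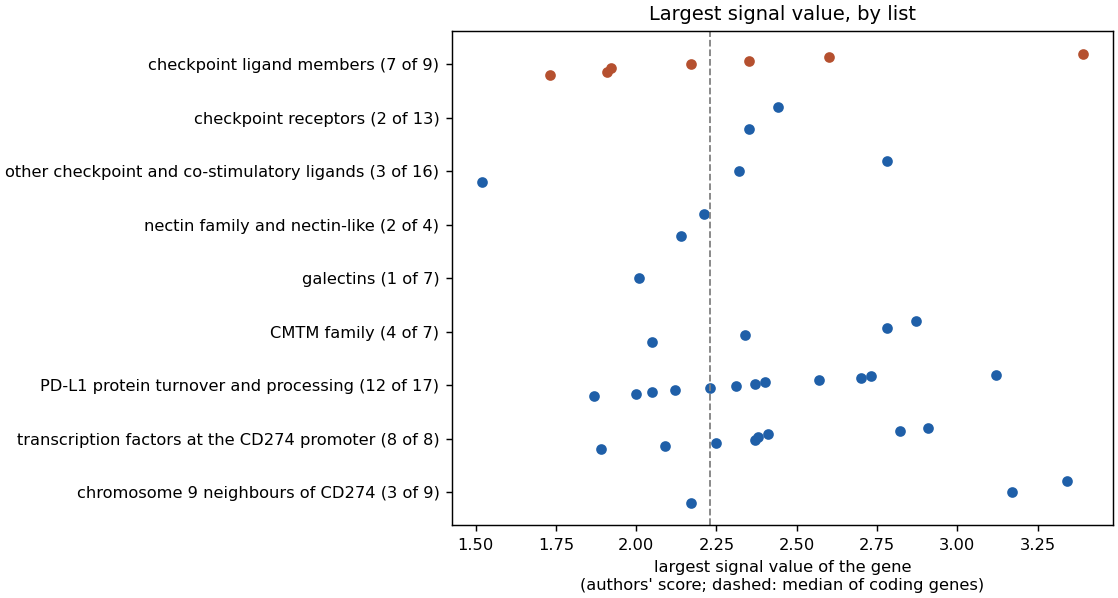
Largest signal value (authors' score, x axis) of each gene with a listed window (points), by list (y axis, with genes listed of genes on the list); the dashed line is the median over protein-coding genes, 2.23. CD274, at 3.39, lies farthest right of all points, next to JAK2 at 3.34.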

How the data were processed

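The deposited table holds 1 row per listed 50 bp window, with 1 value for all 4 libraries together, so no column of a single library was left unused. Per the labels, reads were aligned with STAR 2.7.3a to GRCh38. The peak caller and its settings are not given in the sources used here. Signal values and ranks were taken as a score that the authors deposited on an unstated scale. Each p-value and q-value is also as the authors deposited it, and the IP-YTHDF1 libraries could not be tested against input here.

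From the table, 1 repeated row of 26820 was dropped, and starts were counted from 1. The number of windows tested in a gene was computed from the largest listed p-value and its q-value, since q-values were adjusted within each gene by the Benjamini-Hochberg procedure. All q-values were then refitted within 2%, which held in 100% of 6606 genes with under 9 listed windows. In genes with 1 listed window, such as CD47, LGALS9 and CMTM6, the refit holds by construction and is no check. The step was tested on simulated data, where 99.9% of numbers came out within 1%. Every passing window was listed there, so the limit of 9 was not part of that test. Gene intervals, symbols and gene-start sequences came from RefSeq (GRCh38.p14), and 6368 of 6674 protein-coding symbols (95.4%) matched. Shares have Wilson 95% intervals, which cover counting error only. Because exon annotation and the sequence of the windows were not used here, place on the transcript was not analysed. The members and lists were chosen with earlier results of these data known. Genes outside the members were given values where they were on a list and had a listed window, or were most like CD274 by number of windows and largest signal value. Some list genes with no window, INCR1 and the LGALS9 copies were named after the values were seen. Tables were handled with pandas 2.3.3 and NumPy 2.4.6 in Python 3.11.15, and figures were drawn with matplotlib 3.10.9.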

Additional observations from a re-analysis of the deposited data

How the results depend on the processing

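No paired analysis was possible because each window has 1 value for all libraries together, and leaving out a replicate was not possible for the same reason. Of the 9 members, 4 kept a window at a q-value of at most 0.001, 3 (CD274, CD276 and NECTIN2) under a Bonferroni limit over all 298184 counted windows, a lower bound, and 4 (CD274, CD276, CD47 and CMTM6) at a signal value of at least 2. From 24, the member windows fell to 15 at a q-value of at most 0.01, to 10 at 0.001, to 6 under Bonferroni and to 7 at a signal value of at least 2, as the stricter limits imply. The same Bonferroni and signal limits each left 3 of the 6 CD274 windows. Benjamini-Hochberg adjustment over the counted windows left 22 member windows in all 7 listed members, and joining touching windows left 17. The largest CD274 value was at the 98.9th percentile by windows. It was at the 97.2nd among coding genes and the 98.3rd among genes with a like number of tested windows. The rank column also gave the 98.9th, which is no separate check because ranks follow signal value. Counting also the genes at the limit of 9, chosen after the data were seen, moved the share of tested windows listed from 7.71% to 8.95%. The number tested is a lower bound in such genes, since only 193 of 897 had q-values that fitted with no place skipped. The number listed is cut at 9 in them as well, and 7.71% leaves these genes out. The full share over protein-coding genes is therefore not known. The interval of CD274, at a share of 22.2%, lay above both printed values, which does not place it against that full share. Motif shares over whole windows and the place on transcripts were not run, since neither window sequence nor exons were used here.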
